A study of Mus musculus with 12 samples.

Results

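The genes that put the mannose 6-phosphate tag on lysosomal enzymes and sort the tagged enzymes were examined for binding of the transcription factor USF2 in mouse embryonic fibroblasts (MEFs). They were chosen by function, with earlier results of these data known. They are Gnptab, Gnptg and Nagpa for the tag, Igf2r, M6pr and Sort1 for the receptors, and Gga1, Gga2 and Gga3 for the adaptors. These are 9 of the 21887 protein-coding genes considered. A peak was assigned to a gene when its summit lay within 1000 bp of either end of the gene or inside it. By this rule 4 of the 9 genes had a peak in any list, against 10.5% of all protein-coding genes. They were Nagpa, Igf2r, Gga2 and Gnptg, and 5 of the 9 had none. Nagpa and Igf2r had a strong peak at the transcript start in all 4 lists. Gga2 had a peak of few reads at its start in both normal lists and in neither starved list. Gnptg had a weak peak inside the gene, about as near to an end of Tsr3 as to Gnptg transcript starts. It was called in both starved lists and in neither normal list.

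In the Golgi, a phosphotransferase whose subunits come from Gnptab and Gnptg adds a capped phosphate to mannose residues of new lysosomal enzymes, and the uncovering enzyme encoded by Nagpa removes the cap. Mannose 6-phosphate receptors then bind the tag and pass, with the help of GGA adaptors and clathrin, to endosomes, where the enzymes are released. USF2 is a basic helix-loop-helix leucine zipper factor, and such factors bind the E-box, the palindromic DNA word CACGTG.

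The series compares USF2 occupancy after glucose starvation with that in normal culture by ChIP-seq, the sequencing of DNA fragments pulled down with an antibody against a chromatin protein. Starved cells and normal cells are both labelled WT and MEF, with 2 USF2 libraries in each condition and an input library beside each. The labels give neither the length of the starvation nor the number of embryos behind the cells, nor do they say whether the libraries came from separate cultures. Libraries for the histone mark H3K27ac from Usf2 knockout and wild-type cells belong to the same series of 12 samples and were not analysed here. No USF2 library from knockout cells is among these samples, and peak lists hold no expression values against which the cell type label could be checked.

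Each USF2 library has its own list of peaks, here called starved 1, starved 2, normal 1 and normal 2. The lists held 825 and 1178 peaks for starved cells and 1645 and 2124 for normal cells on chromosomes 1 to 19, X and Y. A peak carries a fold enrichment, the read pileup at its summit over the local background with 1 added to each, and a −log10 q, with a highest q of 0.0499 in any list. No peak was narrower than 306 bp in the starved lists or than 152 bp in the normal lists, so fold enrichments and pileups of the 2 conditions were not made on the same scale and are given side by side without a ratio between them. By a rough guide, the 2 lists within a condition were closer to each other than separate counts of reads would be. The guide is a chi-square per region, over regions with at least 30 summit reads in a pair of lists. It is near 1 when counted reads fall evenly at random into either list. A summit pileup is the highest of its peak, so for pileups 1 is approximate. The value was 0.214 for the starved pair (226 regions) and 0.147 for the normal pair (219 regions). It was 1.27 to 1.42 for the pairs across conditions, whose pileups are not on the same scale. The local background was the same within 1% in 2.21% of the 543 regions that the starved lists had in common and in 80.2% of the 1052 that the normal lists had in common. As the 2 lists of a condition differed by less than the sampling noise by the chi-square guide, they were counted as 1 sample. Each condition thus has n = 1, and no result rests on a test between conditions.

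The promoters of the 4 genes with a peak are shown because they let the position of the peaks be read against the E-box. Each window runs from 250 bases before the transcript start to 50 bases into the transcript and comes from the RefSeq promoter table for GRCm38.p6, the build of the peak lists. Windows were matched for 7 of the 9 genes, all but M6pr and Sort1. The windows are chr16:5203963-5204262 for Nagpa, chr17:12769657-12769956 for Igf2r, chr7:122021149-122021448 for Gga2 and chr17:25240091-25240390 for Gnptg, each on the minus strand. Gnptg has a second window, for a transcript that starts 24 bases further into the gene, with the same E-box. Capitals mark each E-box.
Nagpa: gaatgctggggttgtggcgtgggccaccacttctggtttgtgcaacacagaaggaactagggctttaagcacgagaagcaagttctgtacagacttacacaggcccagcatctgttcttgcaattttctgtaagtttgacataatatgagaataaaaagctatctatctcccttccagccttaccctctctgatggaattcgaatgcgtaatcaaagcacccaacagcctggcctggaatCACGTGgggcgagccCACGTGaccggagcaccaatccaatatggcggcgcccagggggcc
Igf2r: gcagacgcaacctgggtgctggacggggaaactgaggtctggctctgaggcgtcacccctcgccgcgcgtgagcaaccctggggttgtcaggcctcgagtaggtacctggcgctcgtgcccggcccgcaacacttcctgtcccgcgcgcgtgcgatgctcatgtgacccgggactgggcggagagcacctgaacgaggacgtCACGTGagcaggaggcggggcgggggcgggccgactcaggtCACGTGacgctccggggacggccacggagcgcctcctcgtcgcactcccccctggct
Gga2: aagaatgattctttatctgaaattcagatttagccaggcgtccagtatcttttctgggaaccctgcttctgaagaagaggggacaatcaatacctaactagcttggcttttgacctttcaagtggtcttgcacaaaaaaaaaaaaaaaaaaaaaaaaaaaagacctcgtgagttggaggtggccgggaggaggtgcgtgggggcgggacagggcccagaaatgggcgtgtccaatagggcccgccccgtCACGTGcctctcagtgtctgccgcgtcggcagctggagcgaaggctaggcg
Gnptg: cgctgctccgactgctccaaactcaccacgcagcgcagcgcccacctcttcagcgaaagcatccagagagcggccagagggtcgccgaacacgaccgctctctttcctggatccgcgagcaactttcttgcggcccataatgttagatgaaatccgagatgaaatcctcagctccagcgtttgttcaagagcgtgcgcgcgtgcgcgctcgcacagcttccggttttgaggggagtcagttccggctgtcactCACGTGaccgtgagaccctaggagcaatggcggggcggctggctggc

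Each of these 4 windows held at least 1 E-box, and those of Nagpa and Igf2r held 2. The 26-base stretches around the E-boxes show their flanks, with the E-box in capitals and box 1 the one further upstream.
Nagpa box 1: ggcctggaatCACGTGgggcgagccc
Nagpa box 2: ggggcgagccCACGTGaccggagcac
Igf2r box 1: acgaggacgtCACGTGagcaggaggc
Igf2r box 2: cgactcaggtCACGTGacgctccggg
Gga2: cccgccccgtCACGTGcctctcagtg
Gnptg: ggctgtcactCACGTGaccgtgagac
Both E-boxes of Igf2r and the one of Gnptg stood in the 8-base palindrome TCACGTGA, while neither box of Nagpa nor that of Gga2 did.

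Of the genes that make the tag, Nagpa had the strongest peaks of the 9 genes. Its region spanned chr16:5203464-5204292 over the 4 lists, at the start of the gene (chr16:5195280-5204032). The fold enrichment was 18.5 and 16.5 in the starved lists and 18.5 in both normal lists, and −log10 q was 32.6 and 27.6 in the starved lists and 30.4 in both normal lists. The 4 values thus lay close together, and the highest and the lowest of them were both from starved cells. By fold enrichment the peak ranked 3 of 825 and 7 of 1178 in the starved lists and 17 of 1645 and 18 of 2124 in the normal lists. The summit pileup recovered from the deposited values was 29 reads (95% exact Poisson interval 19.4 to 41.6) and 26 reads (17.0 to 38.1) in the starved lists, and 23 reads (14.6 to 34.5) in each normal list. The local background was 0.617 and 0.635 reads in the starved lists and 0.297 reads in both normal lists, so the normal lists were alike in pileup and background. These intervals overlap, and they cover counting error only.

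The 4 Nagpa summits lay within 12 bp of one another. They fell 19 and 15 bp after the transcript start in starved cells and 13 and 7 bp after it in normal cells. The pair of E-boxes lies on either side of that start, with centres at -7.5 and 7.5 bases from it. From each summit to the centre of the nearest E-box there were 11.5 and 7.5 bp in the starved lists and 5.5 and 0.5 bp in the normal lists. No other annotated gene had an end within 1000 bp of these summits.

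Gnptg, which encodes the gamma subunit of the phosphotransferase, had a peak only in the starved lists. The fold enrichment was 6.32 and 4.59 in the starved lists, and no peak was called in either normal list. The −log10 q was 4.81 and 2.48, and the ranks by fold enrichment were 299 of 825 and 881 of 1178. The peak was therefore above the median fold enrichment of starved 1, which was 5.54, and below that of starved 2, which was 5.30. The pileup was 10 reads (95% exact Poisson interval 4.80 to 18.4) in each starved list. The local background under the peak was 0.741 and 1.40 reads, which is 5.65 and 10.5 times the lowest background of these lists. The call ended when −log10 q of at least 5 was required, and in starved 2 when every list was reduced to the 825 best peaks.

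The Gnptg peak cannot be assigned to 1 gene. Its region was chr17:25239737-25240247, and both summits lay inside Gnptg (chr17:25232224-25240328), 400 and 356 bp from its annotated end. The overlapping gene Tsr3 (chr17:25240141-25242799), whose product modifies ribosomal RNA, had an end 213 and 169 bp away. The 2 transcript starts of Gnptg that have a promoter window were as near or nearer, 212 and 168 bp and 188 and 144 bp from the summits. The E-box in the Gnptg windows (chr17:25240132-25240137) lies beside the Tsr3 end at 25240141, so it cannot be assigned to 1 gene either. The summits were 206.5 and 162.5 bp from the centre of this E-box, although both peaks reached over it. Over all promoter windows with a summit and an E-box, the median of this distance was 17.5 and 23.0 bp in the starved lists. The upper quartiles were 37.5 and 46.8 bp. Those values are of summits inside a window, which bounds the distance, whereas both Gnptg summits lay outside the Gnptg windows. The 2 summits of Gnptg were 44 bp apart.

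Gnptab, which encodes the catalytic subunits of the phosphotransferase, had no peak at either end or inside its 68191 bp. The nearest summit of any list lay 48.5 kb away, with a fold enrichment of 4.40 in normal 2. A gene without a peak did not pass the caller's threshold, and its occupancy was not measured.

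Among the receptors, Igf2r had a peak in all 4 lists. This gene encodes the cation-independent mannose 6-phosphate receptor, which also binds insulin-like growth factor 2. The fold enrichment was 13.6 and 12.8 in the starved lists and 16.3 and 13.6 in the normal lists, so the values of the 2 conditions touched. The −log10 q was 19.5 and 17.5 in the starved lists and 25.5 and 19.7 in the normal lists. The peak ranked 31 of 825 and 39 of 1178 by fold enrichment in the starved lists and 30 of 1645 and 60 of 2124 in the normal lists. The pileup was 16 reads (95% exact Poisson interval 9.15 to 26) and 15 reads (8.40 to 24.7) in starved cells, and 19 reads (11.4 to 29.7) and 15 reads (8.40 to 24.7) in normal cells. All 4 intervals overlap.

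The Igf2r summits were spread more widely than those of Nagpa, over 134 bp. They lay 40 bp before and 12 bp after the transcript start in starved 1 and starved 2, and 64 and 122 bp before it in normal 1 and normal 2. The E-boxes of Igf2r have their centres at -45.5 and -4.5 bases from the start, and every one of the 4 peaks covered both. To the nearest E-box centre there were 5.5 and 16.5 bp in the starved lists and 18.5 and 76.5 bp in the normal lists. The distance in normal 2 was beyond the upper quartile of 27.5 bp over all promoter windows with a summit and an E-box in that list, and the other 3 were within theirs, of 37.5 bp in starved 1, 46.8 bp in starved 2 and 26.5 bp in normal 1. The whole region (chr17:12769452-12770049) is inside the span of Airn, the antisense noncoding RNA known for the imprinting of Igf2r in mice, whose own nearest end was 28383 to 28517 bp from the summits. No other gene end lay within 1000 bp.

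M6pr, the gene of the cation-dependent mannose 6-phosphate receptor, and Sort1, the gene of sortilin, which carries some lysosomal proteins without the tag, had no peak. Their nearest summits were 991 and 420 kb away, with fold enrichments of 3.86 in normal 2 and 7.41 in normal 1. Of the 3 receptor genes, only Igf2r was thus called in these lists.

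Of the 3 GGA genes, whose products load receptors into clathrin-coated carriers at the Golgi, only Gga2 had a peak, and only in the normal lists. Neither starved list called a peak there, while the normal lists gave fold enrichments of 8.20 and 10.02. The −log10 q was 9.62 and 13.5, and the ranks by fold enrichment were 225 of 1645 and 175 of 2124. The pileup was 8 reads (95% exact Poisson interval 3.45 to 15.8) and 10 reads (4.80 to 18.4), over a background of 0.0979 reads, the lowest of both lists. The call in normal 1 was lost when at least 10 reads were required. The region (chr7:122021020-122021287) lay at the transcript start of the gene (chr7:121986722-122021198), with summits 31 and 23 bp after the start and 29.5 and 21.5 bp from the centre of its E-box. The median of that distance over all promoter windows with a summit and an E-box was 13.5 and 11.5 bp in the normal lists, with upper quartiles of 26.5 and 27.5 bp, which the summit of normal 1 exceeded. No other gene end lay within 1000 bp of the Gga2 summits. Gga1 and Gga3 had no peak, and the nearest summits were 78.1 and 36.2 kb away.

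**Figure D1:**
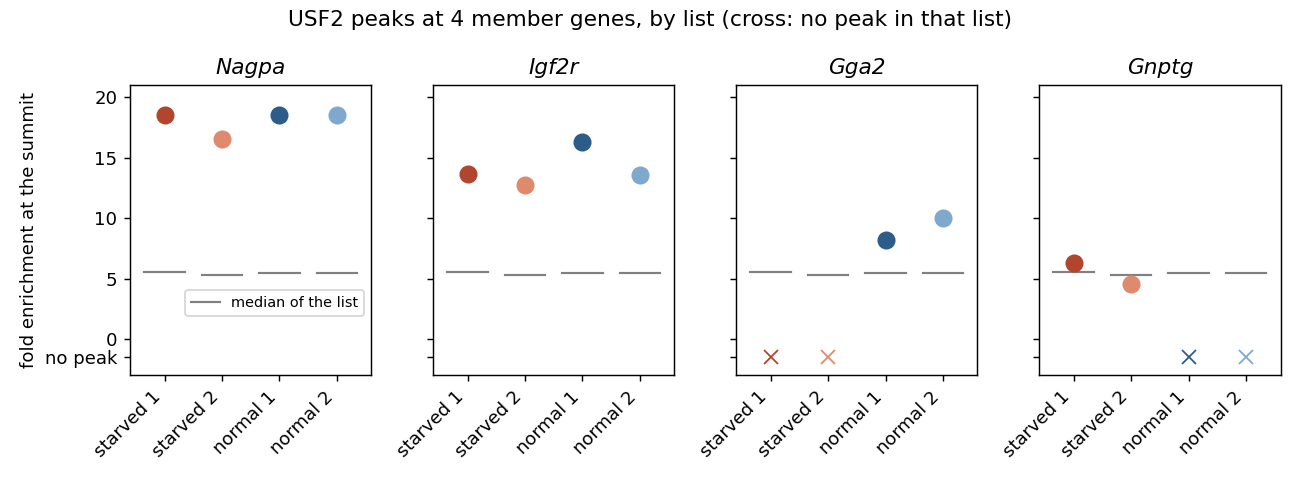
Fold enrichment at the peak summit (vertical axis) in the starved and normal lists (horizontal axis) for the 4 genes with a peak; points are single lists, a cross marks a list without a peak, and grey bars are the median of all peaks of that list. Nagpa (16.5 to 18.5) and Igf2r (12.8 to 16.3) stand well above the medians in all 4 lists, Gga2 has values in the normal lists alone and Gnptg, near the medians, in the starved lists alone.

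Each of the 4 lists thus called 3 of the 9 genes at a gene end. The share of all protein-coding genes called in the same way was 2.01% and 2.30% in the starved lists and 2.54% and 2.68% in the normal lists. Both starved lists called Nagpa, Igf2r and Gnptg, against 1.78% of all genes, and both normal lists called Nagpa, Igf2r and Gga2, against 2.19%. All 4 lists called 2 of the 9, against 1.13% of all genes. Gnptg was the 1 gene of the 9 called in both starved and neither normal list, a pattern of 0.557% of all genes, and Gga2 the 1 called in both normal and neither starved list, a pattern of 0.841%. With peaks inside genes counted too, 4 of the 9 were called in any list, against 10.5% of all genes, and no peak of the 9 lay inside a gene but away from its ends. As the genes were chosen with earlier results of these data known, these shares are a description. The plot of fold enrichment by rank sets the peaks of the 9 genes among all peaks of each list.

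**Figure D2:**
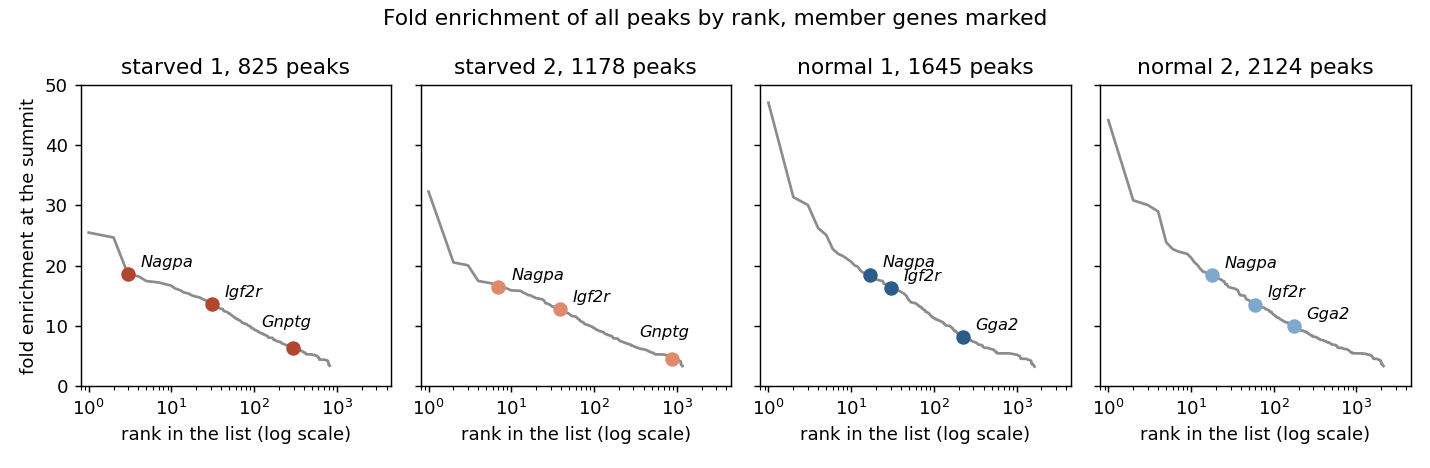
Fold enrichment (vertical axis) of every peak against its rank in its list (horizontal axis, log scale), in panels for the starved and normal lists; coloured points are the peaks at Nagpa, Igf2r, Gga2 and Gnptg. Nagpa ranks between 3 and 18 and Igf2r between 30 and 60, while Gnptg ranks 299 and 881 in the starved lists and Gga2 225 and 175 in the normal lists.

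For the tagging and sorting genes with a window, the E-box went along with the gene call, though not always with a summit there. The 4 genes with a peak each had an E-box in the promoter window. The 3 windows matched for genes without a peak, those of Gnptab, Gga1 and Gga3, had none. The Gga3 window (chr11:115603867-115604166) lay inside the gene, and the sequence at the annotated gene end, 115604517, was not searched. At Gnptg both summits lay outside its windows, 206.5 and 162.5 bp from the E-box, so these windows held an E-box without a summit. The longer word TCACGTGA, which contains the E-box, was found at Igf2r and Gnptg. The variant CATGTG, read as CACATG on the other strand, was found once at Igf2r and in no other of these windows. Across the 32817 distinct promoter windows of the table, searched on both strands, 7.15% held an E-box, 0.975% held TCACGTGA, 14.2% held the variant and 0.594% held 2 or more E-boxes. Windows can overlap where transcripts start close together. Among other genes of the route, described below, Ap1g1 had a summit in its window in all 4 lists and no E-box there. Vps26a, by contrast, had 2 E-boxes in each of its 2 windows, which overlap and share an E-box.

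Among the 150 windows with a USF2 summit in all 4 lists, to which those of Nagpa and Igf2r belong, 92.0% held an E-box and 42.0% held 2 or more. The variant was found in 16% of them, close to its share among all windows. Of the 32227 windows without a summit in any list, 6.03% held an E-box, which makes 1944 windows, so an E-box near a start often came without a call. A match is a word in a window and not a measured contact.

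**Figure D3:**
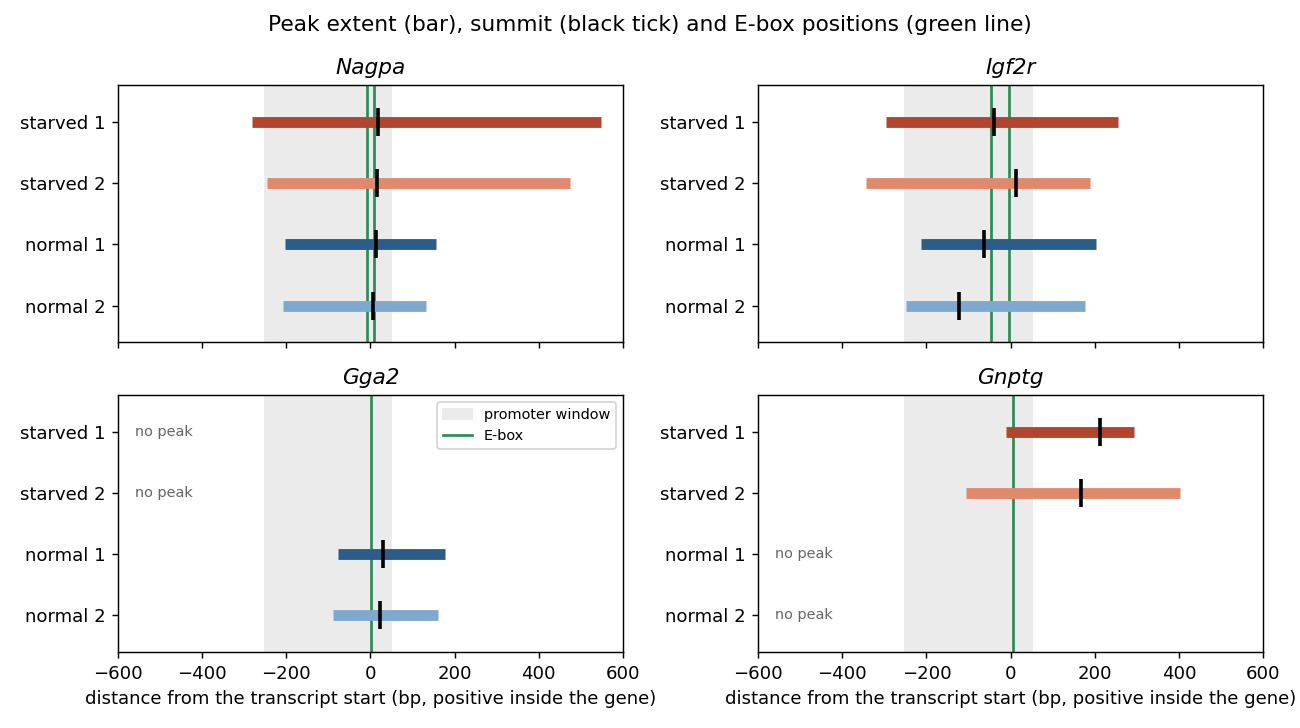
Extent of each peak (coloured bar), its summit (black tick) and the E-boxes (green lines) by distance from the transcript start in bp (horizontal axis) for Nagpa, Igf2r, Gga2 and Gnptg, with the starved lists above the normal lists; the grey band is the promoter window. Summits at Nagpa fall on or beside its pair of E-boxes, those at Gga2 lie 31 and 23 bp into the gene, and those at Gnptg lie 212 and 168 bp into the gene, outside the window.

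**Figure D4:**
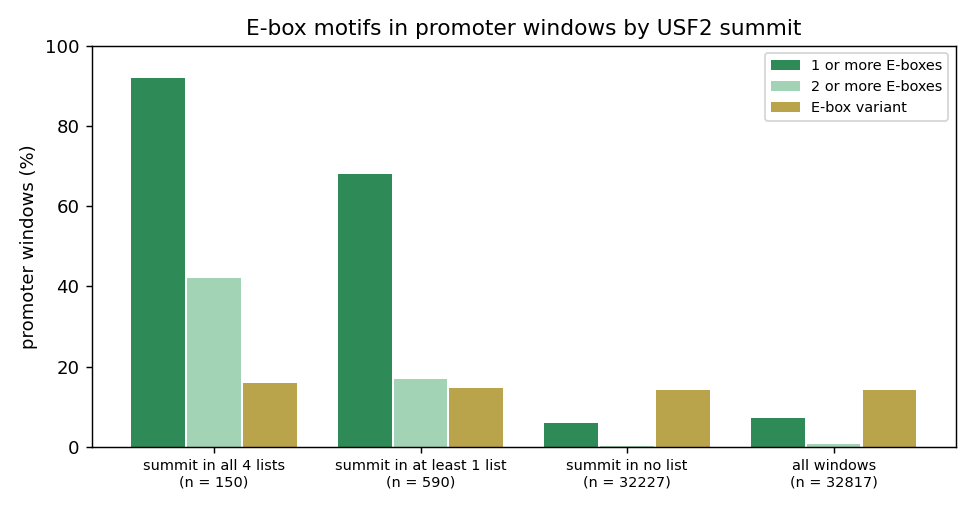
Share of promoter windows (vertical axis, %) that hold 1 or more E-boxes, 2 or more E-boxes, or the E-box variant, for windows with a USF2 summit in all 4 lists, in at least 1 list and in no list, and for all windows. The E-box share is 92.0% in the first group, 68.1% in the second, 6.03% in the third and 7.15% over all windows, while the variant stays between 14.1% and 16%.

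Beyond the 9 genes, 47 others of the same route were looked at, from the supply of the sugar donor to the retrieval of the receptors. They too were chosen with earlier results of these data known, so their shares are a description. Both starved lists called 3 of them at a gene end (6.38%, against 1.78% of all genes), and both normal lists 4 (8.51%, against 2.19%), with 3 in all 4 lists (6.38%, against 1.13%). Of the 17 genes of the coat that works with the GGA proteins, 2 were called in all 4 lists. Of the 11 genes for receptor retrieval, 1 was called in both starved lists and 2 in both normal lists. None of the 3 genes for enzyme maturation and Golgi retention, the 2 for removal of the tag, the 2 for transport of new hydrolases out of the endoplasmic reticulum, the 4 for the sugar donor and the 8 for other sorting receptors had a gene-end peak in any list. Away from gene ends there were peaks inside Mbtps1 (normal 2), Lrp1 (starved 2) and Sorcs3 (both starved lists), 3 genes named here after their values were seen. With these, 7 of the 47 genes (14.9%) had a peak at an end or inside in any list, against 10.5% of all genes.

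Rabep1 encodes Rabaptin-5, an effector of endosomal Rab proteins that also binds GGA proteins. Its peak had a fold enrichment of 6.85 and 7.93 in the starved lists and 19.2 and 18.4 in the normal lists, with pileups of 16 reads in both starved lists and 26 and 24 reads in the normal lists. Ap1g1, the gene of the gamma subunit of the clathrin adaptor AP-1, had 6.14 and 4.75 in the starved lists and 13.6 and 14.1 in the normal lists. Its pileups were 15 and 14 reads in the starved lists and 23 and 24 reads in the normal lists, and its promoter window held no E-box. In both genes the starved values were below the normal ones in fold enrichment and in reads, and above them in local background. That background was 1.48 and 1.14 reads in the starved and 0.406 and 0.361 in the normal lists at Rabep1. At Ap1g1 it was 1.61 and 2.16 reads in the starved lists and 0.767 in both normal lists. The difference in peak width between the conditions moves with these values, and its part was not tested.

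Vps26a and Vps35 encode subunits of retromer, the complex that returns receptors from endosomes to the Golgi. Vps26a had a fold enrichment of 5.09 and 7.38 in the starved lists and 16.1 and 13.4 in the normal lists, with 28 and 27 reads in the starved and 58 and 52 reads in the normal lists. Its local background was 35.8 and 21 times the lowest of the list in starved cells and 27.3 and 30.3 times in normal cells. Each of its 2 promoter windows held 2 E-boxes, 1 of them in TCACGTGA. The windows overlap, and the E-box outside TCACGTGA was the same in both. No window was matched for Rabep1 or Vps35. Vps35 was not called in the starved lists and had a fold enrichment of 6.44 in both normal lists, with 15 reads in each. An end of Orc6, a gene of the origin recognition complex, was 110 bp from the summit, so the peak cannot be assigned to Vps35 alone.

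By their fold enrichments in the 4 lists, the regions most like that of Nagpa among the 247 called in all 4 lists were those at the ends of Nsmce2 and Washc5, at Stmn1 and at Atp6v0b, at Euclidean distances of 0.308, 0.315 and 0.413 in log2 fold enrichment. The region most like that of Igf2r lay at Mfsd5 (distance 0.254), with fold enrichments of 13.1 and 12.8 in the starved lists and 13.9 and 14.5 in the normal lists. It was followed by the region at the ends of Dvl2 and Phf23 (0.255) and that at Gigyf1 (0.276). Likeness here is over 4 lists of which the pairs within a condition are not independent.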

How the data were processed

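USF2 ChIP-seq peak lists of 4 MEF libraries were used. The submitters' processing notes name deepTools 3.5.1, MACS2 2.2.7.1, Bowtie2 2.5.1 and GRCm38 without parameters, and the use of the inputs in peak calling is not given in the sources used here. The deposited fold enrichment is a ratio made by the authors' peak caller, and its p and q were deposited as −log10 values. The deposited summit offset and peak edges gave positions, written 1-based.

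Summit reads and local background were recovered from the fold enrichment and −log10 p of each peak (largest error 0.00027 in −log10 p), a step tested on simulated data. Peaks of different lists that overlapped by at least 1 bp were joined into regions. Genes came from the RefSeq table of GRCm38.p6, which gives no exons, so exon, intron and UTR positions are not given, and promoter windows from the matching table, with the transcript start as position 0. Analyses used Python 3.11.15 with numpy 2.4.6, pandas 2.3.3, scipy 1.17.1 and matplotlib 3.10.9.

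An exact permutation test of the number of the 9 genes called per list had been planned (two-sided p = 1, with 0.33 the smallest p it can give) and was set aside, because the 2 lists of a condition were counted as 1 sample. The genes, the list of 47 others and the alternatives were chosen with earlier results of these data known. Named are all 9 genes, genes sharing their regions, other genes of the route with a gene-end peak in both lists of a condition, and the 3 most similar regions.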

Additional observations from a re-analysis of the deposited data

How the results depend on the processing

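Under all 11 alternatives, Nagpa and Igf2r were called in every list used, although not always as 1 region. Both starved lists called 2 or 3 of the 9 genes, both normal lists 2 or 3, and any list 3 or 4. The share of all genes is given for the main setting only, so these counts have no share beside them. With a reciprocal overlap of 50% for joining peaks, 1 gene instead of 2 was called in all 4 lists as 1 region, since the Nagpa peaks of 829 and 721 bp in starved cells and of 360 and 342 bp in normal cells then no longer joined. The mean number of genes called per list, starved minus normal, was 0. It became -1 with −log10 q of at least 5 (Gnptg lost), 0.5 with summit pileups of at least 10 reads (Gga2 lost in normal 1) and -0.5 with lists reduced to 825 peaks (Gnptg lost in starved 2). With 1 list left out, so that its condition had a single list, the starved lists used called 3, the normal lists used 3, all lists used 2 and any list 4, with a difference of 0; fewer lists cannot lower the first 3 of these counts. With a replicate block, the difference within each replicate number, the value was 0 as well, and as the lists of a condition count as 1 sample, the numbers do not pair samples. Pileups of 8 to 29 reads limit every value at these genes.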
